A study of Rattus norvegicus with 16 samples.

Results

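Collagens and laminins are the long structural proteins of the extracellular matrix, and this account covers the rat genes that encode their chains. Members were the probe sets whose single gene symbol is Col followed by a number, the letter a and a number, or begins with Lama, Lamb or Lamc and ends in a digit. The rule found 72 probe sets of 51 genes, 41 collagen and 10 laminin chains, among 14217 named genes on the array. Of these genes 34 had 1 probe set and 17 had several, and the probe set of highest mean stood for the gene in every count. By structure, 11 genes encode fibrillar chains, 15 encode basement membrane chains (5 of type IV collagen and 10 of laminin), 9 encode fibril-associated collagens with interrupted helices (FACIT), 5 encode type VI chains of beaded filaments and 2 encode multiplexins. The remaining 9 are short chain network (3), transmembrane (4) and other collagens (2). A member's mean was at or above the median of all probe set means (5.9) for 31 genes and below it for 20.

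RNA came from the left ventricle of 16 rats labelled female and aged about 7 months, 1 array per rat, all of generation 16 of selection out of N:NIH rats. For 1 of them, HCR sedentary rat 5, the Xist values given below leave the label in doubt. One line, HCR (High Capacity Runner), was selected for long and the other, LCR (Low Capacity Runner), for short treadmill running at around 11 weeks, and each capacity is represented by a single line. The 4 groups of 4 rats were HCR sedentary, HCR trained, LCR sedentary and LCR trained. Trained rats ran up a 25 degree slope for 1.5 hours on 5 days a week over 8 weeks, with 8 minutes at 85 to 90% of maximal oxygen uptake alternating with 2 minutes at 50 to 60%, and sedentary rats of the same age did not.

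Collagen chains assemble into triple helices and laminin chains into cross-shaped trimers of an alpha, a beta and a gamma chain. In the heart, fibroblasts deposit fibrils of collagen types I and III between muscle bundles, where they carry tension and set the stiffness of the wall. Basement membranes of type IV collagen and laminin coat each cardiac muscle cell and each capillary, and the multiplexin collagens XV and XVIII sit in or beside these membranes. The C-terminal fragment of collagen XVIII, endostatin, is known as an inhibitor of blood vessel growth.

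The start regions of Col18a1, Col15a1, Col4a1 and Col4a2, which recur below, are shown as 3 sequences from RefSeq on the rat build GRCr8, and RefSeq start windows were found for 41 of the 51 members. The first pair are the 250 bases before the start of each multiplexin gene, Col18a1 at chr20:11473395-11473644 and Col15a1 at chr5:66297296-66297545, both on the plus strand. The last is the whole 76-base stretch between the starts of Col4a1 and Col4a2 at chr16:84885521-84885596, written for the plus strand, since these genes are read outward from it, Col4a1 on the plus and Col4a2 on the minus strand. Capitals mark GC boxes, searched on both strands as GGGCGG or CCGCCC.
Col18a1 promoter: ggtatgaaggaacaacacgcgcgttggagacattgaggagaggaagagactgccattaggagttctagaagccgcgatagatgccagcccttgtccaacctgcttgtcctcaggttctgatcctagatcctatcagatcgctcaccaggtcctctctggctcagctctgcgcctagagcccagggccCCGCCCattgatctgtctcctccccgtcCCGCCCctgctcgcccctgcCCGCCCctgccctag
Col15a1 promoter: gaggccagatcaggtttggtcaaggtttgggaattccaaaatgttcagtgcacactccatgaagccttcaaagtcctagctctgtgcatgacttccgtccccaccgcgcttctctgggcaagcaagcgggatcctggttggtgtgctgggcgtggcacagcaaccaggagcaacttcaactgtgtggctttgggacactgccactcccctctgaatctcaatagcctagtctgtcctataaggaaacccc
Col4a1 to Col4a2: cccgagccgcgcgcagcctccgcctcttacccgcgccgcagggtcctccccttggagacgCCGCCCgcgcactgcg
The Col18a1 window holds 3 GC boxes with a GC content of 60.4%, and the Col15a1 window holds 0 with 54.0%. A GC box was found in 30.5% of 33469 RefSeq windows of this length and in 54.5% of the 44 windows of members, and the median GC content of all windows was 51.2%. The stretch between Col4a1 and Col4a2 holds 1 GC box and has a GC content of 78.9%. A GC box was found in 18.1% of all windows of 76 bases and in 38.6% of the 44 windows of members. The median GC content of all windows of 76 bases was 53.9%. None of the 3 sequences holds a CCAAT box (CCAAT or ATTGG) or TATAAA (or TTTATA on the other strand), which are in 34.0% and 12.9% of all 250-base windows and in 13.0% and 4.61% of all 76-base windows. These matches describe letters in a window, not binding.

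Expression is given as the log2 RMA value of a probe set, differences as HCR minus LCR or trained minus sedentary on that scale with the standard error of the limma fit, and a gene was called at a Benjamini-Hochberg adjusted p of 0.05 or less over 31042 probe sets. Levels of different probe sets are not comparable with each other. The number of arrays limits the precision, so that the 95% interval of a difference between 2 groups reached 0.18 on each side for the median member and 0.37 for the widest. Cardiac muscle markers were bright, with means from 12.2 to 14.3 for all 9 measured genes. Arrays correlated at r from 0.984 to 0.995. The interquartile range of values within an array was 1.97 to 2.1 in HCR sedentary rats and 2.14 to 2.21 in LCR sedentary rats, without overlap, and 2.06 to 2.27 in trained rats. HCR sedentary rat 5, labelled female, stood apart with the narrowest range and with Xist, the RNA of the inactive X chromosome, at 3.76 to 4.94 on 4 probe sets where every other rat read 7.56 or more.

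Untrained hearts of the selected lines were compared first. Only Col18a1 was called, 1.33-fold higher in HCR. The major fibrillar chains Col1a1, Col1a2 and Col3a1 and the main type VI chains gave lower values in HCR without passing the test. Basement membrane chains were mixed. On their first probe sets Col4a1, Col4a2, Lama2, Lamb2 and Lamc1 differed by less than 0.10 either way. Lama4 (-0.21), Lama5 (-0.20) and Lamb1 (-0.14) gave lower values in HCR, also without passing. Thus 1 of 51 members was called (1.96%), against 895 of 14217 genes (6.3%), of which 285 were higher in HCR (2%) and 610 were lower (4.29%). Unadjusted p values under 0.05 belonged to 9 members (17.6%), against 31.4% of all genes. The difference between these shares was not tested.

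Col18a1 encodes the alpha chain of collagen XVIII, a heparan sulphate proteoglycan of vascular and epithelial basement membranes. On its first probe set the HCR sedentary rats read 6.84, 6.70, 6.77 and 6.73 and the LCR sedentary rats 6.40, 6.10, 6.46 and 6.43. Trained HCR rats read 6.75, 6.78, 6.62 and 6.63, and trained LCR rats 6.53, 6.45, 6.51 and 6.54. Every HCR rat thus lay above every LCR rat, within sedentary rats, within trained rats and across both, and LCR sedentary rat 3 was the lowest of all.

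The sedentary line difference of Col18a1 was 0.41 ± 0.07 (adjusted p = 0.0139, 95% interval 0.26 to 0.57, 4 rats per group). Its second probe set read 6.61, 6.82, 6.58 and 6.63 in HCR sedentary and 6.24, 6.06, 6.41 and 6.28 in LCR sedentary rats, again without overlap, with a difference of 0.41 ± 0.08 (adjusted p = 0.0194), where 4.99% of all probe sets were called. On the first probe set the call held without each of the 16 rats in turn (0.33 to 0.45, adjusted p from 0.013 to 0.0476) and under all 9 other settings tested (0.35 to 0.44). Without HCR sedentary rat 5 it was 0.41 (adjusted p = 0.0468), and without LCR sedentary rat 3, the lowest, 0.33 (adjusted p = 0.0262). All genes with a mean between 6 and 7, the level of Col18a1, had a median difference of 0.0045.

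**Figure D1:**
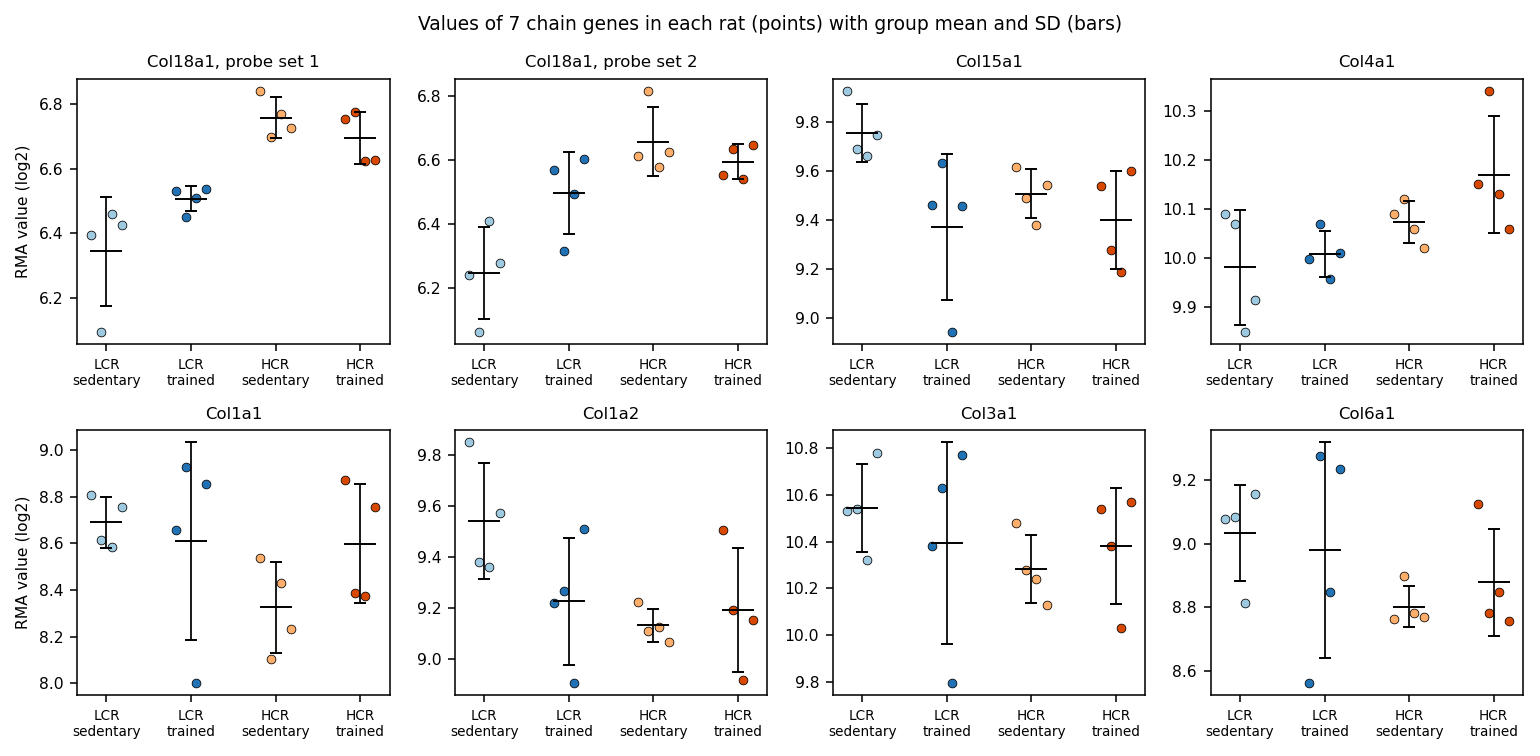
Log2 RMA value (y axis, a separate scale in each panel) of both Col18a1 probe sets and of 6 other chain genes in each of 16 rats, with 4 rats per group (points) and the group mean with SD (bars). Col18a1 separates all HCR from all LCR rats on its first probe set, while Col1a1, Col1a2 and Col3a1 spread widely in trained rats.

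In trained rats the line difference of Col18a1 was 0.19 ± 0.07 (adjusted p = 0.560), with no overlap between lines but no call. The second probe set read 6.56, 6.63, 6.54 and 6.65 in HCR trained and 6.57, 6.32, 6.50 and 6.60 in LCR trained rats, which overlapped (0.10, adjusted p = 0.868). Averaged over training, HCR exceeded LCR by 0.30 ± 0.05 (1.23-fold, adjusted p = 0.00718), and the second probe set gave 0.25 ± 0.06 (adjusted p = 0.0222), where 3.84% of all probe sets were called. The difference between the lines' training responses was -0.23 ± 0.10 (adjusted p = 0.497), so a smaller line difference in trained rats was not shown. In LCR the training difference was 0.16 ± 0.07 (adjusted p = 0.874), and in HCR it was -0.06 (adjusted p = 0.707). On the second probe set the LCR difference was 0.25 ± 0.08 (adjusted p = 0.628).

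Col15a1 encodes the other multiplexin, collagen XV, which lies at the outer face of basement membranes of muscle and capillaries. It read 9.62, 9.49, 9.38 and 9.55 in HCR sedentary and 9.93, 9.69, 9.66 and 9.75 in LCR sedentary rats. All HCR values lay below all LCR values, a difference of -0.25 ± 0.13 (adjusted p = 0.202), and the second probe set gave -0.35 (adjusted p = 0.111). Trained LCR rats read 9.46, 9.63, 8.94 and 9.46, all below the sedentary LCR rats (-0.38 ± 0.13, adjusted p = 0.643), with rat 3 lowest. On the second probe set the LCR means were 7.93 in sedentary and 7.556 in trained rats. These groups overlapped there, with trained rat 1 at 7.812 and sedentary rat 6 at 7.782. Trained HCR rats read 9.54, 9.28, 9.19 and 9.60 and overlapped their sedentary group. Neither comparison passed the test, and the 2 multiplexins had opposite signs in the sedentary line difference.

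Among the fibrillar chains, Col1a1 and Col1a2 encode the alpha1 and alpha2 chains of type I collagen and Col3a1 the chain of type III. Col1a2 read 9.22, 9.11, 9.13 and 9.07 in HCR sedentary rats against 9.85, 9.38, 9.36 and 9.57 in LCR sedentary rats, without overlap. The difference was -0.41 ± 0.13 (adjusted p = 0.0729), as large as that of Col18a1 but with a wider error. It passed in 3 of 9 other settings tested, with arrays centred on their medians (-0.47, adjusted p = 0.0475), with scale normalization (-0.50, adjusted p = 0.0347) and with only the sedentary groups in the fit (adjusted p = 0.0434). Scale normalization moved most genes lower in HCR, as given below. After quantile normalization the Col1a2 difference was -0.29 without a call. Leaving out each of the 16 rats in turn gave 0 calls (adjusted p from 0.057 to 0.159 by limma). The second Col1a2 probe set gave -0.28 (adjusted p = 0.203).

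Col1a1 read 8.54, 8.11, 8.43 and 8.23 in HCR sedentary rats and 8.81, 8.62, 8.58 and 8.75 in LCR sedentary rats, also without overlap (-0.36 ± 0.17, adjusted p = 0.171). Its second probe set differed by -0.01 ± 0.15, so the probe sets of this gene disagree in size. Col3a1 read 10.48, 10.28, 10.24 and 10.13 against 10.53, 10.54, 10.32 and 10.78, which overlap (-0.26 ± 0.17, adjusted p = 0.318). Chains of the minor fibrillar type V, which sets fibril diameter, gave -0.26 ± 0.12 for Col5a2 (adjusted p = 0.163) and 0.05 for Col5a1 (adjusted p = 0.732). The second Col5a1 probe set was of opposite sign, at -0.03.

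Over the class, 6 of 11 fibrillar genes were lower in sedentary HCR, with a median difference of -0.027, against 7626 of 14217 genes lower (53.6%) and a median of -0.018 over all genes. The remaining fibrillar genes lay between -0.10 and 0.18. In trained rats 5 of 11 were lower, with a median of 0.0078, and the type I chains overlapped between the lines. Col1a2 there read 9.51, 9.19, 8.92 and 9.15 in HCR and 9.22, 9.27, 8.90 and 9.51 in LCR (-0.03, adjusted p = 0.989). In trained LCR rats Col1a1 ran from 8.00 in rat 3 to 8.93 in rat 2, and Col3a1 from 9.79 in rat 3 to 10.77 in rat 4.

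Of the basement membrane chains, Col4a1 and Col4a2 encode the chains of the common type IV network. Col4a1 read 10.09, 10.12, 10.06 and 10.02 in HCR sedentary and 10.09, 10.07, 9.85 and 9.91 in LCR sedentary rats, which overlap (0.09, adjusted p = 0.373). Col4a2 differed by 0.04 (adjusted p = 0.726). In trained rats Col4a1 read 10.15, 10.34, 10.13 and 10.06 in HCR against 10.00, 10.07, 9.96 and 10.01 in LCR, with 1 HCR rat inside the LCR range (0.16 ± 0.07, adjusted p = 0.613). Its second probe set gave 0.14 in sedentary (adjusted p = 0.211) and 0.20 in trained rats (adjusted p = 0.519). Col4a5, a chain of the less common type IV networks, differed by -0.14 in sedentary rats, without overlap and without a call.

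Laminin chains Lama2, Lamb1, Lamb2 and Lamc1 build the laminins of the muscle cell surface, and Lama4 and Lama5 those of vessels. Lama2, the alpha chain lost in a congenital muscular dystrophy, read 10.42, 10.41, 10.30 and 10.41 in HCR sedentary and 10.49, 10.27, 10.29 and 10.54 in LCR sedentary rats (-0.02, adjusted p = 0.900). The LCR values enclose the HCR values. Lamb1 differed by -0.14 (adjusted p = 0.364), Lamb2 by -0.03 (adjusted p = 0.821) and Lamc1 by 0.04 (adjusted p = 0.788). The vascular chains lay lower, Lama4 by -0.21 without overlap (adjusted p = 0.149) and Lama5 by -0.20 (adjusted p = 0.266), but their dimmer probe sets gave 0.07 for Lama4 and 0.05 and 0.07 for Lama5. Signs of the small differences of Col4a1, Col4a2, Col5a1, Lama2, Lamb2 and Lamc1 turned with the scaling of the arrays, so no direction is given for them.

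Over this class 6 of 15 genes were lower in sedentary HCR, 1 of 5 type IV and 5 of 10 laminin genes, with a median of 0.042. The fibrillar median was -0.027. Each class had 0 called genes, and the difference between the classes was not tested. The basement membrane class leaves out the multiplexins Col15a1 and Col18a1, of which Col18a1 was called. Unadjusted p values under 0.05 by limma belonged to 3 fibrillar (Col1a1, Col1a2, Col5a2) and 2 basement membrane genes (Lama4, Lamc3). After scale normalization 7 of 11 fibrillar and 10 of 15 basement membrane genes were lower, with medians of -0.086 and -0.059, while all genes had a median of -0.089 with 66% lower. After quantile normalization of the probe set values the medians were -0.078 and 0.077, and that of all genes 0.0066 with 47.9% lower. Among called genes the split was 172 higher and 1956 lower with scale, and 119 higher and 156 lower with quantile normalization.

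**Figure D2:**
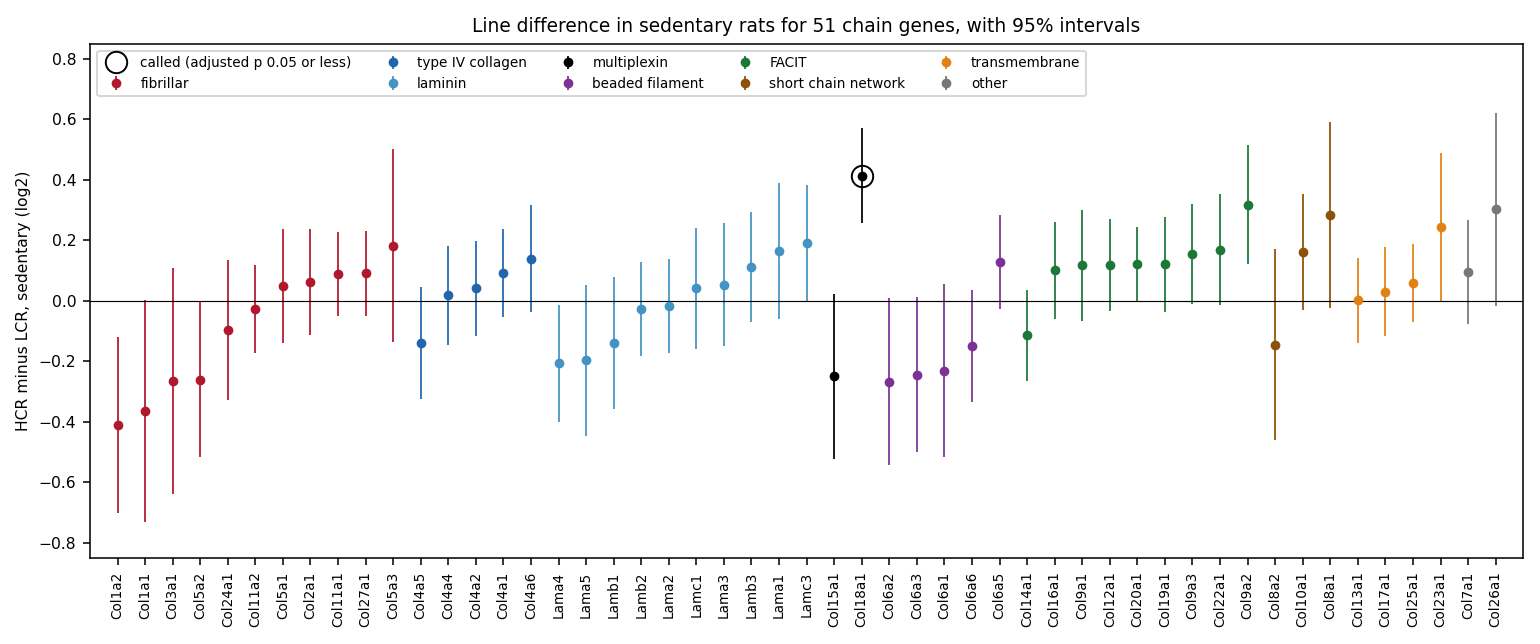
Difference between HCR and LCR in sedentary rats (y axis, log2) for each of 51 chain genes grouped by structural class, with 95% intervals and a ring around the called gene. Col18a1 at 0.41 is the called gene, type I chains lie lowest at -0.41 and -0.36, and type IV and laminin chains lie within 0.21 of 0.

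Type VI collagen forms beaded filaments that link basement membranes to the interstitial matrix. In HCR sedentary rats Col6a1 read 8.76, 8.90, 8.78 and 8.77 and in LCR sedentary rats 9.08, 9.09, 8.81 and 9.16, with LCR rat 5 inside the HCR range (-0.23, adjusted p = 0.254). Col6a2 and Col6a3 differed by -0.27 (adjusted p = 0.181) and -0.24 (adjusted p = 0.189), and their dimmer second probe sets by 0.04 and 0.08. Of the 5 type VI genes 4 were lower, with a median of -0.23, a sign count that held as deposited and under the quantile, scale and median settings. By limma 0 type VI genes were called, and 0 had an unadjusted p under 0.05. Fewer cells of a type and less RNA per cell cannot be told apart in bulk ventricle.

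FACIT chains attach to fibril surfaces. In sedentary HCR 8 of 9 genes gave higher values (median 0.12), and at least 8 under each scaling tried. By limma 0 were called and 2 had an unadjusted p under 0.05, where 31.4% of all genes had one. Col12a1, Col19a1, Col22a1, Col9a1 and Col9a3 lie below the median level, where 22.9% of all genes were lower in HCR (median 0.086). The other FACIT genes lie at or above it, where 69% were lower. The part of level in this count was not tested. Col9a2, a chain of the cartilage collagen IX, read 6.53, 6.79, 6.82 and 6.73 in HCR sedentary and 6.41, 6.52, 6.27 and 6.39 in LCR sedentary rats. These groups do not overlap, and the difference of 0.32 ± 0.09 missed the threshold narrowly (adjusted p = 0.0515). It passed without 4 of the 16 rats, each left out alone (HCR sedentary rat 3, HCR trained rats 4 and 6, LCR trained rat 2), at adjusted p from 0.0315 to 0.0481. Trained HCR rats read 6.37, 6.12, 6.50 and 6.54, a training difference of -0.34 ± 0.09 (adjusted p = 0.210), and trained LCR rats 6.49, 6.57, 6.42 and 6.38. All 4 measured cartilage markers on the list were also higher in sedentary HCR (median 0.088) without a call. Of these markers 2 are at or above the median level. The median of all genes was -0.082 at or above that level and 0.086 below it. The part of these markers in the Col9a2 result was not tested.

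Whether a member lay above or below 0 in sedentary rats went with the level of its probe set. Of the 31 brighter members 17 were lower in HCR (54.8%, median -0.027), and of the 20 dimmer members 2 (10%, median 0.11). Among all genes the same split gave 69% lower (median -0.082) and 22.9% lower (median 0.086). The narrower range of values on HCR sedentary arrays moves with this pattern, and its part was not tested. Between levels of 9 and 10 the median of all genes was -0.13, against -0.41 for Col1a2 and -0.25 for Col15a1, and after quantile normalization it was -0.0082, against -0.29 and -0.12. Col18a1 was 0.44 after that step.

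**Figure D3:**
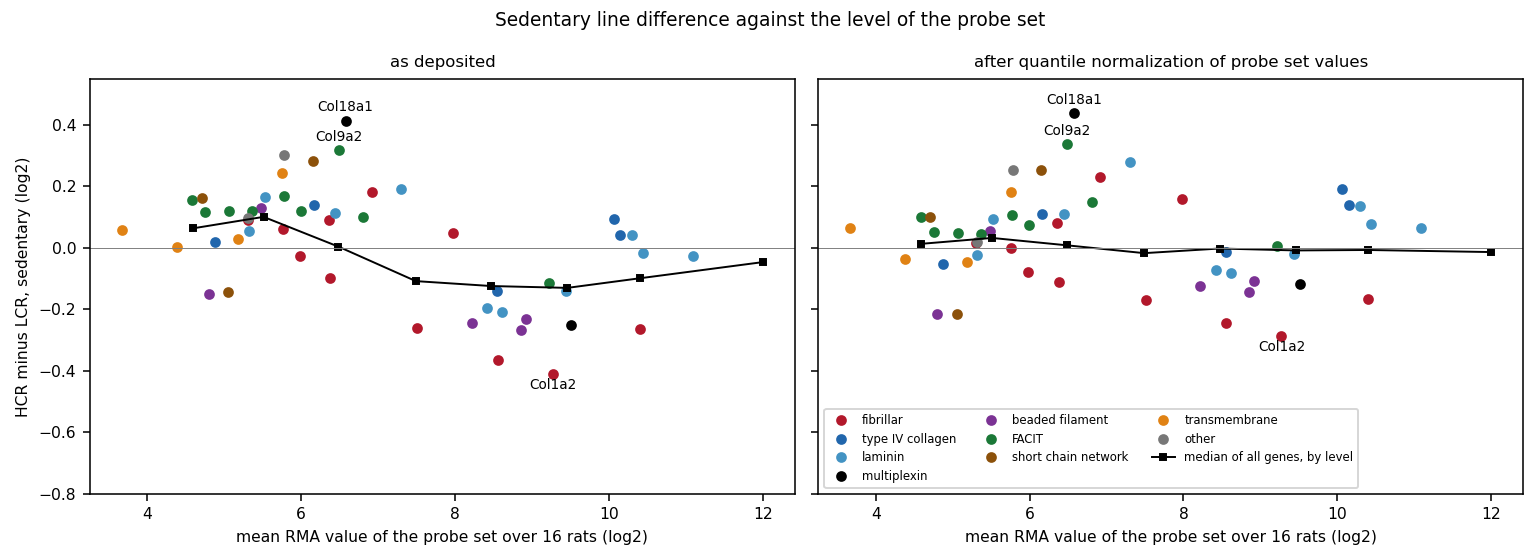
Sedentary line difference (y axis, log2) of 51 chain genes against the mean level of the probe set over 16 rats (x axis, log2), as deposited (left) and after quantile normalization of the probe set values (right), with the median of all genes at each level as a line. As deposited the line falls from 0.10 at levels of 5 to 6 to -0.13 at levels of 9 to 10, and Col18a1 stands above it in both panels.

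Without overlap between the sedentary groups, 5 members were higher in HCR (Col18a1, Col9a2, Col23a1, Col22a1 and Col10a1) and 5 lower (Col1a1, Col1a2, Col15a1, Lama4 and Col4a5), 9.8% each, against 8.86% higher and 11.4% lower of all genes. These shares are near the background. In trained rats Col18a1 alone separated the lines (1.96% of members, against 1.54% of all genes), and 0 members were lower without overlap (against 1.81%).

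The line difference in trained rats gave 0 called members, against 13 of all genes (0.0914%, with 0.0422% higher and 0.0492% lower). By limma 3 members had an unadjusted p under 0.05 (5.88%, against 8.4% of all genes). The lowest p values were those of Col18a1 and Col4a1, higher in HCR, and of Col13a1 (-0.18 ± 0.06, adjusted p = 0.499), a transmembrane collagen of muscle synapses, and Col16a1 (-0.12, adjusted p = 0.795). Averaged over training, Col18a1 was again the 1 called member, against 4.92% of all genes, 1.54% higher and 3.38% lower, and 6 members had an unadjusted p under 0.05 (11.8%, against 27.9%). Next to it by p came Col9a3 (0.15 ± 0.05, adjusted p = 0.104), Col4a1 (0.13, adjusted p = 0.118), Col1a2 (-0.22, adjusted p = 0.162) and Lama4 (-0.14, adjusted p = 0.175).

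Interval training called 0 members in HCR, in LCR and averaged over lines, against 0%, 0% and 0.00703% of all genes by limma. Unadjusted p values under 0.05 were counted for 5 members in HCR (9.8%, against 14.7% of all genes), 5 in LCR (9.8%, against 6.77%) and 6 averaged (11.8%, against 10.6%). The fibrillar genes were higher after training in 8 of 11 cases in HCR, with a median of 0.061, and in 5 of 11 in LCR, with a median of -0.0068. The basement membrane genes were higher in 11 of 15 in HCR (median 0.061) and 9 of 15 in LCR (median 0.015). Among all genes at or above the median level, 34.4% were lower after training in HCR, with a median of 0.046, and below that level 75.5% were lower, with a median of -0.064. FACIT genes were lower after training in HCR for 8 of 9, with a median of -0.11, and in LCR for 5 of 9. None of these classes held a called gene.

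In HCR the lowest p values belonged to Col9a2, described above, and Col12a1, a FACIT chain of tendon and fascia. Col12a1 read 5.52, 5.45, 5.51 and 5.49 in sedentary and 5.27, 5.17, 5.21 and 5.36 in trained HCR rats, without overlap (-0.24 ± 0.07, adjusted p = 0.221). The mean over its 3 probe sets differed by -0.11. The second went the other way, with HCR group means of 5.235 in sedentary and 5.312 in trained rats. The third was lower after training, at 5.104 and 4.95. Col5a2 read 7.52, 7.44, 7.12 and 7.15 in sedentary and 7.63, 7.80, 7.43 and 7.52 in trained HCR rats, which overlap (0.29 ± 0.12, adjusted p = 0.307), and Col24a1, a minor fibrillar chain, differed by 0.27 ± 0.11 (adjusted p = 0.300). Col12a1, Col19a1 and Lama1 were lower without overlap (5.88%, against 3.78% of all genes), and 0 members were higher without overlap (against 4.51%).

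In LCR the leading members were Col15a1 and Col1a2 (-0.32 ± 0.13, adjusted p = 0.834), both lower with training, and Col6a5 (0.16, adjusted p = 0.874), higher beside Col18a1. Only Col15a1, on its first probe set, separated the groups by its lower values (1.96%, against 2.1% of all genes). Higher without overlap were 0 members (against 1.32%). Averaged over lines Col5a3, a minor type V chain, gave 0.23 ± 0.10 (adjusted p = 0.513), Lama2 0.10 (adjusted p = 0.560), Col15a1 -0.25 ± 0.09 (adjusted p = 0.439) and Col12a1 -0.13 (adjusted p = 0.460).

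The difference between the lines' training responses was called for 0 members, against 0% of all genes, and 4 had an unadjusted p under 0.05 by limma (7.84%, against 10.7%). The lowest p values were those of Col9a2 (-0.40, adjusted p = 0.475) and Col18a1 below 0, and of Col1a2 (0.38, adjusted p = 0.524) and Col24a1 (0.31, adjusted p = 0.514) above 0. These 7 comparisons share groups, so their values are not independent of each other.

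Single rats were also compared by class. As the mean deviation of the 11 fibrillar genes from their means over all rats, LCR trained rats lay at -0.038, 0.15, -0.21 and 0.10 for rats 1, 2, 3 and 4 (SD 0.16), and HCR sedentary rats between -0.12 and -0.016 (SD 0.046). The 4 HCR sedentary rats lay between -0.10 and -0.064 for type VI and between -0.015 and 0.0061 for laminin. Laminin in LCR sedentary rats ran from -0.12 in rat 5 to 0.052 in rat 6. For type VI, LCR sedentary rat 5 (-0.078) lay inside the HCR sedentary range and the other LCR sedentary rats above it, and the sedentary groups overlapped for fibrillar, type IV, laminin and type VI chains. FACIT chains separated them, from 0.048 to 0.13 in HCR sedentary and from -0.089 to 0.016 in LCR sedentary rats. Several FACIT genes are dim, and the part of level in this separation was not tested. In trained rats FACIT chains overlapped, from -0.10 to 0.05 in HCR and from -0.11 to 0.088 in LCR.

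**Figure D4:**
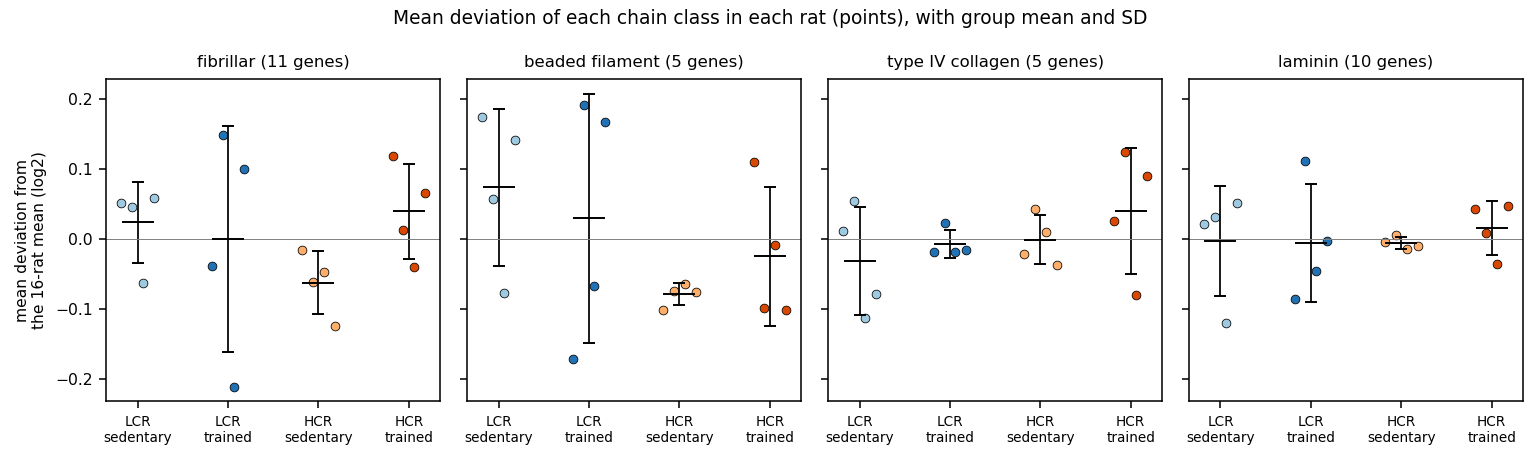
Mean deviation of the genes of 4 chain classes from their means over all rats (y axis, log2) in each of 16 rats, with 4 rats per group (points) and the group mean with SD (bars). LCR trained rats spread from -0.21 to 0.15 for fibrillar chains and HCR sedentary rats lie close together for type VI and laminin.

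Chains that build one molecule or fibril were compared by the correlation of their deviations from the group mean over 16 rats. The p values came from permutation within groups. The 14 pairs were named by known partnership, except Col15a1 with Col18a1, which are separate collagens of the multiplexin class. Of these 14 pairs, those of type VI varied together most closely. Col6a1 and Col6a3 gave Pearson r = 0.925 (permutation p = 0.00083, adjusted 0.00574) and Spearman rho = 0.915 (permutation p = 0.00063), and r = 0.857 without the 2 rats farthest from the median of Col6a1. Col6a1 with Col6a2 gave r = 0.871 and rho = 0.924 (permutation p = 0.00377 and 0.00136, adjusted 0.0106 and 0.00476), and Col6a2 with Col6a3 gave r = 0.867 and rho = 0.924 (permutation p = 0.00295 and 0.0001, adjusted 0.0103 and 0.0014).

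The type I and III chains also varied together, while the fibrillar pair Col5a1 and Col5a2 did not pass (r = 0.0894 and rho = 0.0941, permutation p = 0.803 and 0.766, adjusted 0.848 and 0.785). Col1a1 and Col3a1 gave r = 0.866 and rho = 0.765 (permutation p = 0.00123 and 0.00385, adjusted 0.00574 and 0.0108), and 0.714 without the 2 rats farthest out. Col1a1 and Col1a2 gave r = 0.761 and rho = 0.794 (permutation p = 0.00097 and 0.00124, adjusted 0.00574 and 0.00476), and 0.622 without 2 rats. Col1a2 and Col3a1 gave r = 0.748 and rho = 0.688 (permutation p = 0.0096 and 0.0124, adjusted 0.0224 and 0.0289), and 0.673 without 2 rats. LCR trained rat 3 was low on all of them.

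Col4a1 and Col4a2, which share the stretch shown above, gave r = 0.523 and rho = 0.571 (permutation p = 0.0358 and 0.0285), which missed the threshold after adjustment (0.0716 and 0.057). The laminin pairs were weaker, with r = 0.285 for Lama2 and Lamc1, 0.270 for Lamb1 and Lamc1, 0.201 for Lama4 and Lamb1 and 0.103 for Lamb2 and Lamc1 (permutation p from 0.283 to 0.748, adjusted from 0.495 to 0.848). Col4a5 with Col4a6 gave 0.163 and Col15a1 with Col18a1 0.0406 (permutation p = 0.602 and 0.848). All 1275 pairs of members had a median r of 0.117, with quartiles of -0.133 and 0.361. The 465 pairs of brighter members had a median r of 0.166, with quartiles of -0.0821 and 0.395. Pairs of chains from different molecules were not compared singly. Whether close correlation is particular to partner chains was therefore not tested. Values of a pair come from the same array and share its scaling. After scale normalization Col6a1 with Col6a3 gave 0.929 and Col1a1 with Col3a1 0.869.

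**Figure D5:**
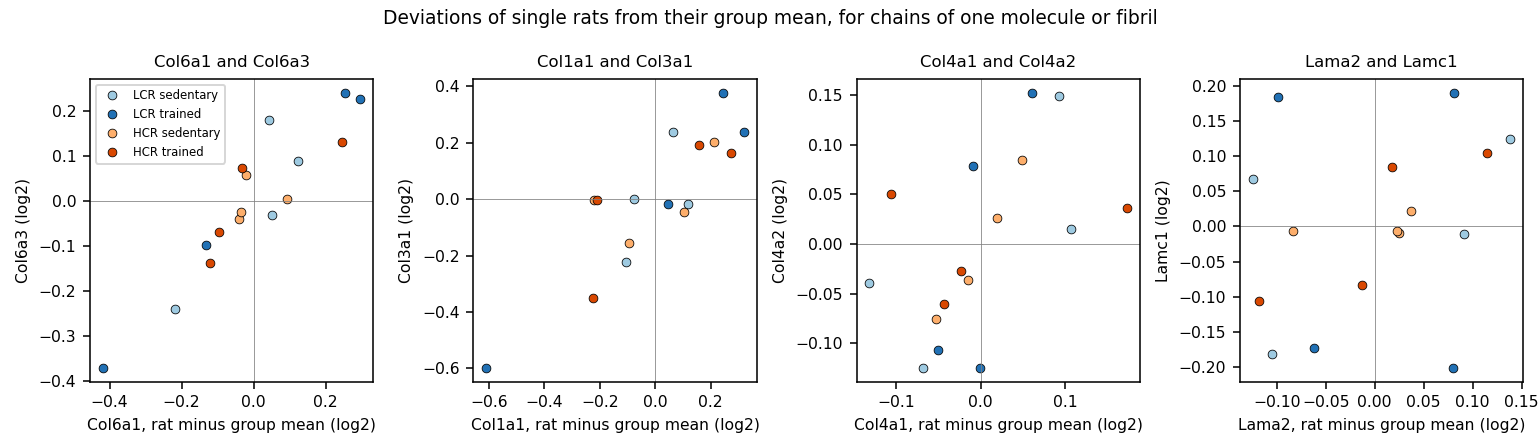
Deviation of each of 16 rats from its group mean (log2) for one chain (x axis) against a partner chain (y axis), in 4 pairs, with points coloured by group. Col6a1 with Col6a3 (r = 0.925) and Col1a1 with Col3a1 (r = 0.866) lie near a line, while Lama2 with Lamc1 (r = 0.285) scatter.

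Of 29 listed genes of collagen synthesis and crosslinking 23 were measured, 11 higher and 12 lower in sedentary HCR. In this list 2 were called, both lower, where 6.3% of all genes were called and 4.29% were called lower. Colgalt2, which adds galactose to collagen hydroxylysine, read 5.04, 5.05, 5.08 and 5.07 in HCR sedentary and 5.38, 5.28, 5.50 and 5.43 in LCR sedentary rats, without overlap (-0.34 ± 0.06, adjusted p = 0.016), a call lost without HCR rat 4 (adjusted p = 0.0511) or LCR rat 6 (adjusted p = 0.0617). It was also called averaged over training (-0.26 ± 0.04, adjusted p = 0.00692). P3h3, a member of the prolyl 3-hydroxylase family, read 6.67, 6.52, 6.50 and 6.40 against 6.94, 6.79, 6.80 and 7.04 (-0.37 ± 0.09, adjusted p = 0.0364), a call that was lost after quantile normalization (-0.35, adjusted p = 0.055), without the arrays of narrowest and widest range (-0.36, adjusted p = 0.0967) and without HCR sedentary rat 4, 5 or 6 or any LCR sedentary rat (-0.32 to -0.40, adjusted p from 0.0536 to 0.108).

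Of 8 fibril-associated proteoglycans and fibronectin, 5 were higher and 3 lower in sedentary HCR. Lum, the fibril spacer lumican, read 9.95, 9.74, 9.98 and 9.80 against 10.11, 10.33, 10.29 and 10.39 and was called (-0.41 ± 0.11, adjusted p = 0.0403), but not after quantile normalization (-0.31, adjusted p = 0.12), without the arrays of narrowest and widest range (-0.45, adjusted p = 0.0524) or without HCR sedentary rat 4, 5 or 6 or LCR sedentary rat 3, 5 or 6 (-0.37 to -0.45, adjusted p from 0.0744 to 0.115). Of 8 measured basement membrane partners out of 10, the calcium-binding matrix proteins Smoc1 and Smoc2 were called in opposite directions. Smoc1 was higher (0.40 ± 0.09, adjusted p = 0.0275) and Smoc2 lower (-0.80 ± 0.17, adjusted p = 0.0244), while the other Smoc2 probe sets gave 0.09 and 0.00 and the second Smoc1 probe set 0.19 (adjusted p = 0.101). Without the arrays of narrowest and widest range both missed the threshold (adjusted p = 0.0524 for each). Without HCR sedentary rat 4 or 5 or LCR sedentary rat 3 or 6 neither call held (adjusted p from 0.0533 to 0.0808), nor did that of Smoc1 without HCR sedentary rat 6 or LCR sedentary rat 5 (0.0598 and 0.0647). Averaged over training Sparc, a collagen-binding protein, was higher by 0.25 ± 0.06 (adjusted p = 0.0233), and Pxdn, the peroxidase that crosslinks type IV collagen, by 0.19 ± 0.05 (adjusted p = 0.046). The second Sparc probe set gave 0.11 (adjusted p = 0.223) and the second Pxdn probe set 0.38 (adjusted p = 0.472). The Sparc call was lost with scale normalization (0.19, adjusted p = 0.0557) and without HCR sedentary rat 4 or LCR sedentary rat 6 (adjusted p = 0.0521 and 0.0520), and the Pxdn call without 12 of the 16 rats, each left out alone (adjusted p from 0.0522 to 0.0948). The Pxdn call was also lost in 4 of 8 other settings, with arrays centred on their medians (0.16), scale normalization (0.14), a trend in the variance (0.19) and without the arrays of narrowest and widest range (0.18), at adjusted p from 0.0534 to 0.15. It held without HCR sedentary rat 3, HCR trained rat 3, LCR sedentary rat 2 or LCR trained rat 2. Receptors, with 11 of 16 measured, had 0 called, 6 higher and 5 lower in sedentary rats, with Ddr2, a fibrillar collagen receptor, at -0.29 (adjusted p = 0.107) and Itgb1 at 0.15 (adjusted p = 0.153). In the trained line difference, the training differences and the interaction 0 genes of these 4 lists were called.

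Of 9 fibroblast markers, none of them a chain gene, 7 were lower in sedentary HCR (median -0.17), where 69% of all genes at or above the median level were lower (median -0.082) and 8 of the 9 markers are at that level. The mean deviation of the list lay between -0.15 and -0.017 in HCR sedentary rats and between 0.036 and 0.18 in LCR sedentary rats, without overlap. In trained rats it lay between -0.088 and 0.063 in HCR and between -0.12 and 0.19 in LCR. Fbln1, which encodes fibulin-1, was the 1 called marker of this list (-0.54 ± 0.13, adjusted p = 0.0369), while its second probe set gave 0.09, and the call was lost without HCR sedentary rat 4, 5 or 6 or LCR sedentary rat 3, 5 or 6 (adjusted p from 0.0596 to 0.109), after quantile normalization (adjusted p = 0.0578) and without the arrays of narrowest and widest range (adjusted p = 0.0734). Myofibroblast markers lay the other way, with 5 of 5 higher in sedentary HCR (median 0.15), 1 of them called (Acta2), and list deviations from 0.036 to 0.16 in HCR and from -0.10 to -0.023 in LCR sedentary rats, without overlap. The others were Cthrc1 at 0.20 (adjusted p = 0.140), Postn at 0.15 (adjusted p = 0.704), Fn1 at 0.10 (adjusted p = 0.630) and Tnc at 0.04 (adjusted p = 0.684). Of the 5 myofibroblast markers 2 are at or above the median level. Below that level 22.9% of all genes were lower in sedentary HCR (median 0.086). Markers of endothelial cells, which border vascular basement membranes, were higher for 6 of 8 genes (median 0.047), with 0 called and list deviations from 0.0045 to 0.054 in HCR and from -0.098 to 0.048 in LCR sedentary rats, which overlap. Smooth muscle and pericyte markers were higher for 8 of 9 (median 0.099), with list deviations from -0.076 to 0.09 in HCR and from -0.17 to 0.025 in LCR sedentary rats. Acta2, smooth muscle actin, which is on both lists, was called (0.35 ± 0.09, adjusted p = 0.0421). That call was lost without HCR sedentary rat 4, 5 or 6 or LCR sedentary rat 2, 3 or 6 (adjusted p from 0.0714 to 0.126) and in 4 of 9 other settings, with arrays centred on their medians (0.30), scale normalization (0.27), only the sedentary groups (0.35) and without the arrays of narrowest and widest range (0.29), at adjusted p from 0.0541 to 0.122. Averaged over training, where 4.92% of all genes were called, Acta2 was called too (0.31 ± 0.06, adjusted p = 0.0186). The averaged Acta2 call held without each of the 16 rats and in 7 of 8 other settings. Fbln1 was also called averaged over training (-0.35 ± 0.09, adjusted p = 0.045), a call kept without 4 of the 16 rats, each left out alone. Separation of the sedentary lines was not particular to fibroblast and myofibroblast lists. Schwann and neuron markers lay from 0.042 to 0.112 in HCR and from -0.129 to -0.0371 in LCR sedentary rats. Adipocyte and cartilage lists also separated these groups, higher in HCR. Cardiomyocyte, macrophage, lymphocyte and mesothelium lists overlapped. The part of these cell markers in the chain gene values was not tested.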

How the data were processed

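Left ventricular RNA of 16 rats was measured on Affymetrix RAE 230 2.0 arrays. The authors deposited RMA-normalized log expression values, per the submitters' processing notes, which span 3.24 to 14.54 and are treated here as log2. The sources used here do not give the base, and another base would change sizes and folds, not signs or tests. RMA normalizes probes, so the range of summarised values can still differ between arrays. Of 31099 probe sets 57 controls were left out. The array annotation supplied for the platform gave 20826 probe sets 1 symbol, 436 several and 9780 none here. The probe sets with 1 symbol name 14217 genes, and all 51 member gene IDs were found in the RefSeq table.

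limma 3.58.1 in R 4.3.3 was run on the 16 arrays together, with a mean for each group and 12 residual degrees of freedom. The 7 contrasts were tested two-sided, with Benjamini-Hochberg adjustment over 31042 probe sets, the source of all adjusted p values of genes. The script was tested on simulated data. Groups and rat numbers came from sample titles. Named were members called on any probe set, the 2 members of lowest p in each direction of each comparison, 18 preset members, and called genes of 4 pathway lists. Ddr2 and Itgb1 were named as the receptors of lowest p in each direction, and Col4a5 and the genes of non-overlapping groups from those counts. Members and lists were chosen with earlier results of these data known.
Alternatives changed scaling, filter, probe set choice, variance model, samples and block, and left out each rat; leaving out the arrays of narrowest and widest range together was chosen after seeing the data.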

Additional observations from a re-analysis of the deposited data

Results flagged for a closer look

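Among 35 named genes in 4 groups of 4 rats (140 groups), the gap between the highest or lowest rat and its nearest neighbour was a larger part of the group's range than Dixon's 95% critical value for 4 samples in 6 groups. Chance alone flags about 1 in 20 groups. Lamb2 read 11.28 in HCR trained rat 3 and 11.09 in each of the other HCR trained rats. The same rat was highest for Col5a1, at 8.18 against 7.93 to 7.96. Lama2 was lowest in HCR sedentary rat 5, the rat with low Xist, at 10.3 against 10.41 to 10.42. Col6a1 was highest in HCR sedentary rat 4, at 8.897 against 8.763 to 8.782. Lamc1 was highest in HCR sedentary rat 3, at 10.34 against 10.3 to 10.31. Pxdn was highest in LCR trained rat 1, at 9.111 against 9.026 to 9.038.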

How the results depend on the processing

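The sedentary count of 1 called member became 2 with 1 probe set per gene (Col9a2 added), with arrays centred on their medians (Col1a2), with only probe sets at or above the median mean (Col9a2) and with scale normalization (Col1a2). It became 3 with only the groups compared (Col1a2 and Col9a2) and with the replicate block, the rat number as a fixed effect (Col9a2 and Col9a3). Leaving out each rat gave 1 to 2, with Col9a2 added without HCR sedentary rat 3, HCR trained rats 4 and 6 or LCR trained rat 2. The count averaged over training, 1, became 2 with the replicate block (Col9a3) and 1 to 3 without single rats, 3 without LCR trained rat 2 (Col5a3 and Col9a3 added). Under the replicate block the Col18a1 difference was 0.41 in sedentary rats and 0.30 averaged, both called. Same-numbered rats of different groups did not deviate together (16 pairs, r from -0.231 to 0.339, median 0.0354), so numbers were not used as pairs. The other 5 counts stayed at 0 under every setting run. Over 55 gene results, 1383 alternative values gave 17 turned signs, all of small sedentary line differences without a call. With arrays centred on their medians these were Col4a2 (-0.017), Col5a1 (-0.0092) and Lamc1 (-0.017), with scale normalization Col4a1 (-0.0065), Col4a2 (-0.059), Col5a1 (-0.029) and Lamc1 (-0.060), and with quantile normalization Lama2 (0.077) and Lamb2 (0.065). Without the arrays of narrowest and widest range, Lama2 gave 0.012 and Lamb2 0.00075. Without single rats the values ran from -9.1e-05 to 0.091 for Col4a2, -0.058 to 0.030 for Lama2 (above 0 also at 0.012 and 0.014), -0.076 to 0.00075 for Lamb2 and -0.019 to 0.083 for Lamc1. The cause was not tested. With 4 arrays per group, member differences below about 0.18 lie within the median interval.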
